A study of Homo sapiens with 40 samples.

Results

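The comparison is between ONO-AE1-329 at 1 uM, which activates EP4, a receptor for prostaglandin E2, and vilanterol at 100 nM, an agonist of the β2-adrenoceptor, each given alone for 2 h to BEAS-2B cells. BEAS-2B is an immortalised human bronchial epithelial line. The 4 ONO-AE1-329 libraries (ONO below) and the 4 vilanterol libraries were chosen by their treatment labels, and they are 8 of the 40 libraries of the series. Both concentrations are called maximal in the design text; they differ in molar amount, and the compounds belong to different classes and act on different receptors.

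The cells were grown to confluence and kept overnight in medium without serum, and these conditions were shared by all groups. The other groups used here, of 4 libraries each, were 1 uM ONO with roflumilast N-oxide (RNO, an inhibitor of PDE4, at 1 uM), 100 nM vilanterol with 1 uM RNO, ONO alone at 0.1 nM and 1 nM, RNO alone and vehicle. Poly(A) RNA was sequenced, and the values were normalised by the authors. They are called TPM here (transcript abundance scaled for length and library size), which was assumed. Their column totals were unequal, so they were treated as a normalised signal. The labels do not state whether replicates are separate cultures; the p-values rest on the spread between libraries of a group, which may be technical.

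Both receptors signal through the stimulatory G protein to adenylyl cyclase, which makes cyclic AMP (cAMP). cAMP activates protein kinase A (PKA), and PKA phosphorylates CREB, a transcription factor that binds the cAMP response element in the promoters of many early response genes. The PDE4 enzymes break cAMP down and so limit the signal. In the airway, β2-agonists relax smooth muscle and also act on the epithelium.

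ONO gave lower RNA levels than vilanterol for most of the genes that differed, and the lower genes were led by cAMP-inducible genes: IL6, SGK1, DUSP1 and NR4A3. The genes higher with ONO were led by TXNIP, EGR1 and ARRDC4. Of 12591 genes tested, 269 were called at an adjusted p under 0.05, which is 2.14% of those tested. ONO was lower than vilanterol for 216 of them (1.72%) and higher for 53 (0.421%). The differences were small for most genes: the ratio of ONO to vilanterol means had a median of 0.761 over the 216 lower genes and 1.21 over the 53 higher genes. The mean with ONO was at most 0.5 times the vilanterol mean for 7 genes (IL6, CXCL2, NPTX1, SGK1, RAB3A, DUSP1 and NR4A3) and at least 2 times it for 1, TXNIP. The ranges of the 4 ONO and the 4 vilanterol libraries did not overlap for 204 of the 216 and 48 of the 53. The genes were called from these same libraries, so these counts are partly set by that choice and are descriptions. The share without overlap over all genes tested is not given here.

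The same-numbered libraries of the 2 treatments deviated together, and a fit with the replicate number as a block called 620 genes lower (4.92%) and 236 higher (1.87%), among them all 216 and all 53. Without ONO replicate 2 the fit called 157 genes, 130 lower and 27 higher, and the count of higher genes was 32 without vilanterol replicate 3 and 35 without ONO replicate 4.

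**Figure D1:**
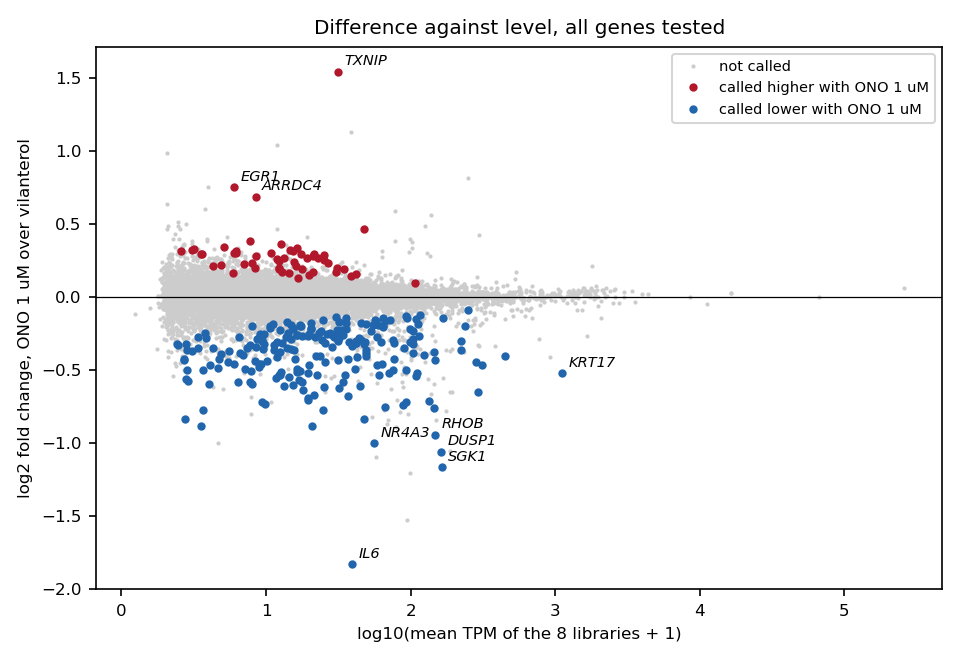
Log2 fold change of ONO 1 uM over vilanterol for each gene tested (vertical) against log10 of the mean TPM of the 8 libraries plus 1 (horizontal). Red points are the 53 genes called higher with ONO, blue points the 216 called lower and grey points those not called; the lower genes reach -1.83 (IL6) and the higher genes 1.55 (TXNIP).

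Genes known to be induced by cAMP and CREB formed the list with the largest share of called members. The lists were chosen with earlier results of these data known, so this rank is a description. Of the 29 tested members of the cAMP list 15 were called lower with ONO and none higher, and the median log2 fold change was -0.59, against 0.00097 over all genes tested. Over all genes tested 1.72% were called lower and 0.421% higher, and the counts of the lists below stand beside these shares. The mean log2 value was lower with ONO for all 29, against 6215 of all 12591 genes tested. With the replicate block 24 of the 29 were called lower, against 4.92% of all genes tested.

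IL6 encodes interleukin-6, a cytokine of the acute response. It was at 24.6, 16.2, 9.43 and 15.9 TPM in the 4 ONO libraries, against 87.8, 58.0, 43.4 and 52.9 TPM in the 4 vilanterol libraries. Each ONO library was below every vilanterol library, and in both groups replicate 1 was the highest and replicate 3 the lowest. The log2 fold change was -1.83 ± 0.21 (SE), with an adjusted p of 1.53e-06. SGK1, a serum- and glucocorticoid-inducible kinase that regulates ion transport, was at 147, 100, 72.3 and 86.4 TPM with ONO and 310, 235, 174 and 189 TPM with vilanterol. The groups did not overlap, and the log2 fold change was -1.17 ± 0.19 (SE, adjusted p 0.000195).

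DUSP1 is a phosphatase that switches off MAP kinases. Its libraries held 125, 101, 80.5 and 111 TPM with ONO and 256, 230, 173 and 215 TPM with vilanterol, again without overlap (log2 fold change -1.06 ± 0.14, SE, adjusted p 9.82e-06).

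The NR4A genes encode orphan nuclear receptors that are rapid targets of CREB. NR4A3 was at 41.3, 35.3, 31.7 and 36.4 TPM with ONO and 76.5, 75.7, 64.2 and 76.6 TPM with vilanterol. The difference was -1.0 ± 0.18 on the log2 scale (SE, adjusted p 0.000625). NR4A2 was at 18.6, 12.9, 9.86 and 12.8 TPM with ONO and 32.2, 26.9, 18.3 and 25.7 TPM with vilanterol, so that the highest ONO library lay above the lowest vilanterol library, yet within each replicate number ONO was lower (log2 fold change -0.89 ± 0.18, SE, adjusted p 0.00241; 0.0558 with only the groups of the contrast fitted). NR4A1 averaged 60.0 ± 9.78 TPM with ONO and 98.6 ± 15.6 TPM with vilanterol (SD, n = 4 each). Its groups did not overlap but it was not called, with an adjusted p of 0.083, and it was called with the replicate block (adjusted p 0.00922).

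The other called members of the cAMP list were PDE4B, PDE4D, ZNF331, ATF3, CRISPLD2, AREG, DIO2, CITED2, TSC22D2 and GEM. ZNF331, a zinc-finger repressor, averaged 66.1 ± 13.3 TPM with ONO and 110 ± 14.7 TPM with vilanterol. CRISPLD2, a secreted protein, averaged 15.6 ± 1.96 TPM with ONO and 25.4 ± 1.53 TPM with vilanterol, and DIO2, the deiodinase that activates thyroid hormone, 2.20 ± 0.215 TPM with ONO and 3.85 ± 0.613 TPM with vilanterol (SD, n = 4 each). Among the members not called were RGS2, a regulator of G-protein signalling (log2 fold change -0.78, adjusted p 0.0562), LINC00473, a non-coding RNA (-0.59, adjusted p 0.077), PER1, a clock gene (-0.35, adjusted p 0.408), CREM (-0.16, adjusted p 0.325) and FOS (-0.30, adjusted p 0.523). The first 3 of these were called with the replicate block, at adjusted p of 0.00146, 0.00605 and 0.0277. With only the groups of the contrast fitted CITED2 was not called (0.0505). Leaving out 1 library ended the calls of GEM (adjusted p up to 0.0693, without vilanterol replicate 4), CRISPLD2 (up to 0.0719, without ONO replicate 2), AREG (up to 0.188, without ONO replicate 2) and TSC22D2 (up to 0.158, without ONO replicate 3).

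**Figure D2:**
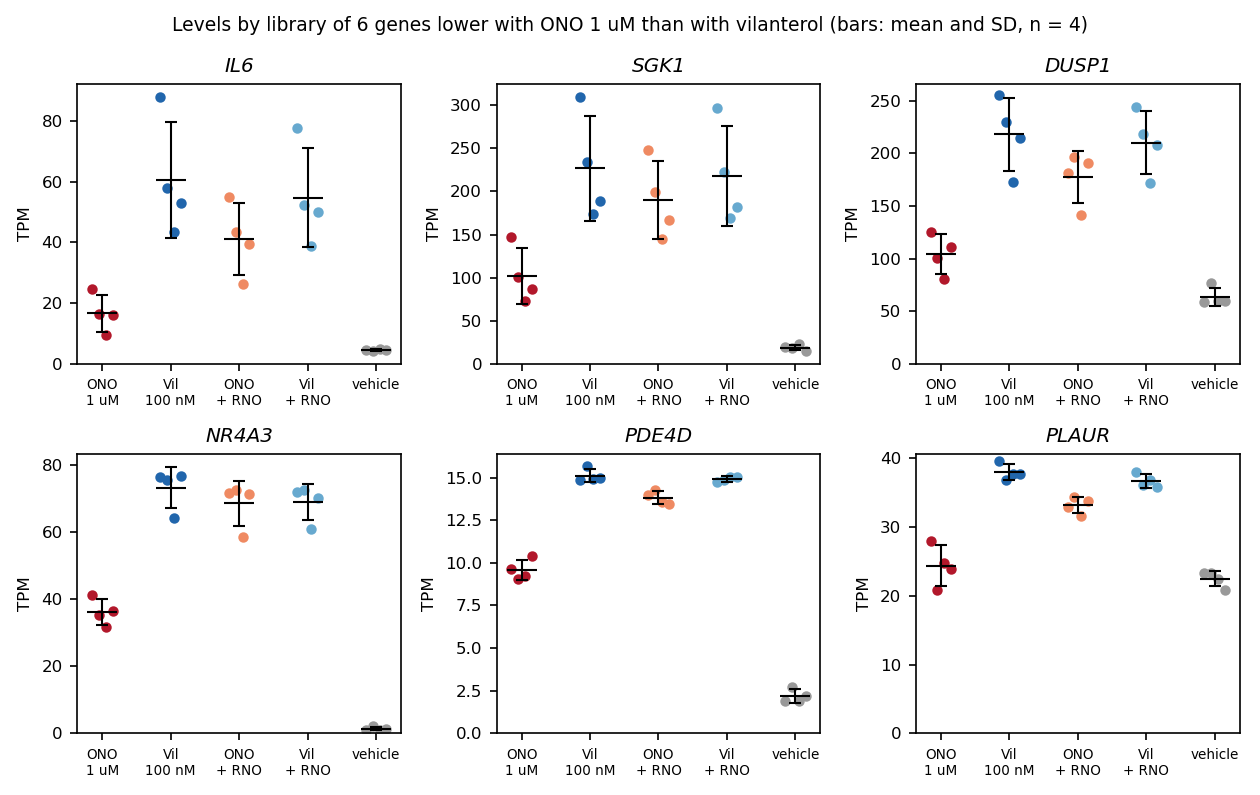
Levels in TPM of 6 genes lower with ONO 1 uM than with vilanterol 100 nM, by library, for ONO, vilanterol, ONO with RNO, vilanterol with RNO and vehicle; points are libraries, and bars are the mean and SD of 4. For IL6 the ONO libraries sit between 9.43 and 24.6 TPM, below all 4 vilanterol libraries, and the ONO with RNO libraries reach 55.1 TPM.

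The promoters of the called genes were searched for the letters of the cAMP response element. Promoters of 300 bases (250 before to 50 after the start of the gene) were taken from RefSeq on GRCh38.p14, which held entries for 9989 of the tested genes and 214 of the called ones. Only 1 start was searched for each gene, and it may not be the start used in these cells. The full element TGACGTCA was present in 12 of 168 promoters of genes lower with ONO (7.14%), 1 of 46 of genes higher with ONO (2.17%) and 338 of 9989 of all genes tested (3.38%). The shorter element TGACG, counted on both strands and including those inside the full element, was present in 45.2% of the promoters of the lower genes, 21.7% of those of the higher genes and 35.1% of all. The E-box CACGTG was present in 14.3% of the lower, 6.52% of the higher and 10.2% of all. These shares are descriptions, and a match does not show that a factor binds.

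The 250 bases before the start are given for 4 of the leading genes as examples that hold the short element, IL6, DUSP1 and NR4A3 among the lower genes and EGR1 among the higher genes, which hold from 2 to 4 each. Other leading genes hold none in the same 250 bases, among them SGK1, PLAUR, IL11 and the uncalled NR4A1 on the lower side and TXNIP and ARRDC4 on the higher side, which says only that these letters are not in that window. Other starts of these genes were not searched. The letters in capitals mark the short element on either strand (TGACG or its complement CGTCA), and in DUSP1 also the full element and an E-box that overlaps a short element. The regions, in that order, are chr7:22726950-22727199 (plus strand), chr5:172771196-172771445 (minus strand), chr9:99821635-99821884 (plus strand) and chr5:138465229-138465478 (plus strand).
IL6: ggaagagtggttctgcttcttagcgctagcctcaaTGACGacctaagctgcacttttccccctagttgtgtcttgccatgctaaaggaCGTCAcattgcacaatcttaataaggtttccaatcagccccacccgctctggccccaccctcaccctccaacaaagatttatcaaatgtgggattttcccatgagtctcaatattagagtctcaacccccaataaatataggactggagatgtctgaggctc
DUSP1: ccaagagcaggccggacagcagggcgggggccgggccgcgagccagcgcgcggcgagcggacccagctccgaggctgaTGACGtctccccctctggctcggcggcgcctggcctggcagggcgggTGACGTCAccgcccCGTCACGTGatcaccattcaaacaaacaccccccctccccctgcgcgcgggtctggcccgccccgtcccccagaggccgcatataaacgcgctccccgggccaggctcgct
NR4A3: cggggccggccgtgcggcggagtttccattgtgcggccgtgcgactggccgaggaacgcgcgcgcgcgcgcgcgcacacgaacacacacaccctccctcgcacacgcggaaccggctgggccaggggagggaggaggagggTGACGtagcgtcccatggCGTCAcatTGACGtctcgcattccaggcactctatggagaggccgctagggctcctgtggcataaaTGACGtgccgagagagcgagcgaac
EGR1: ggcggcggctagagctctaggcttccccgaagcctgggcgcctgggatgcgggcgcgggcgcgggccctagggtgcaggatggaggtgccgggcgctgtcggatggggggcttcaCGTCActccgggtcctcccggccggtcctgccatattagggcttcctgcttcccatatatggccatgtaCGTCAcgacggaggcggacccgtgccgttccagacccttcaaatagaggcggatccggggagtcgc

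The genes that make, sense and break down cAMP differed little, apart from 2 PDE4 genes. In the list of cAMP synthesis, receptors and breakdown 2 of 19 tested members were called lower and none higher, with a median log2 fold change of -0.02. PDE4D encodes a cAMP phosphodiesterase that is itself induced by cAMP. It was at 9.64, 9.07, 9.23 and 10.4 TPM with ONO and 14.9, 15.7, 14.9 and 15 TPM with vilanterol, with no overlap and a log2 fold change of -0.61 ± 0.10 (SE, adjusted p 0.000195). PDE4B averaged 2.77 ± 0.441 TPM with ONO and 3.81 ± 0.571 TPM with vilanterol (SD, n = 4 each, adjusted p 0.0398), and its call was lost without 6 of the 8 libraries in turn (adjusted p up to 0.206, without vilanterol replicate 1). PDE4A averaged 1.67 ± 0.202 TPM with ONO and 1.89 ± 0.14 TPM with vilanterol and was not called (95% interval of the log2 fold change -0.30 to 0.07). PDE4C stayed under the minimum of 1 TPM set for testing, at a mean of 0.43 TPM with ONO and 0.50 TPM with vilanterol.

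PTGER4, which encodes EP4, was not called. It averaged 1.24 ± 0.0848 TPM with ONO and 1.06 ± 0.137 TPM with vilanterol (95% interval of the log2 fold change -0.06 to 0.30). Of 25 tested genes of PKA, Epac and anchoring proteins, 2 were called lower: AKAP12, a scaffold that holds PKA near the membrane, averaged 87.5 ± 7.57 TPM with ONO and 127 ± 7.03 TPM with vilanterol (SD, n = 4 each, adjusted p 0.0068), and AKAP1, a mitochondrial anchor, averaged 22.4 and 25.2 TPM. The call of AKAP1 had an adjusted p of 0.0495, and up to 0.243 without ONO replicate 2. None of 16 tested genes of receptor desensitisation was called at this threshold by limma; 1, RGS2, had an unadjusted p under 0.05 and was called lower with the replicate block.

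Cytokine and chemokine genes were lower with ONO where they were called. Of 15 tested, 3 were called lower (IL6, IL11 and CXCL2) and none higher, with a median log2 fold change of -0.22; with the block it was 5, CCL2 and CLCF1 in addition. IL11, an IL-6 family cytokine, was at 117, 95.02, 102 and 112 TPM with ONO and 186, 179, 180 and 178 TPM with vilanterol. The groups did not overlap, and the log2 fold change was -0.76 ± 0.20 (SE, adjusted p 0.0379), but leaving out any 1 of the 8 libraries ended the call (adjusted p up to 0.137, without ONO replicate 2). CXCL2, a neutrophil-attracting chemokine present at low level, was at 1.08, 0.697, 0.708 and 1.41 TPM with ONO and 3.83, 2.22, 2.11 and 2.06 TPM with vilanterol (adjusted p 0.00139). CCL2, which attracts monocytes, averaged 162 ± 16.1 TPM with ONO and 208 ± 10.4 TPM with vilanterol without being called (adjusted p 0.069; 0.00919 with the block).

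Genes that restrain inflammatory signalling were lower where they were called. Of 26 tested, 8 were called lower and none higher (TNFAIP3, NFKBIZ, SOCS3, ZFP36L1, DUSP1, ZC3H12A, CD274 and CD200), with a median of -0.19. CD200, a surface ligand that inhibits myeloid cells, was at 8.99, 9.68, 9.08 and 10.1 TPM with ONO and 13.7, 13.7, 13.4 and 15.03 TPM with vilanterol (adjusted p 0.0107). CD274, which encodes the checkpoint ligand PD-L1, averaged 4.15 ± 0.388 TPM with ONO and 6.72 ± 0.514 TPM with vilanterol (SD, n = 4 each, adjusted p 0.00426). NFKBIZ, a nuclear IκB protein, averaged 3.05 ± 0.239 TPM with ONO and 4.43 ± 0.167 TPM with vilanterol (adjusted p 0.000361). Leaving out 1 library ended the calls of TNFAIP3 (up to 0.124, without vilanterol replicate 4), SOCS3 (up to 0.198, without ONO replicate 2) and ZC3H12A (up to 0.116, without ONO replicate 2).

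Of 22 tested glucocorticoid-inducible genes 4 were called lower (CRISPLD2, SGK1, DUSP1 and ERRFI1) and none higher, and with the block 11 were called lower and 1 higher. The first 3 are also in the cAMP list. ERRFI1, a feedback inhibitor of the EGF receptor, averaged 11.2 ± 0.35 TPM with ONO and 14.6 ± 1.11 TPM with vilanterol (SD, n = 4 each, adjusted p 0.00995; 0.0537 without vilanterol replicate 2).

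The genes higher with ONO were led by 2 arrestin-like genes and 2 immediate early transcription factors. TXNIP binds thioredoxin and limits glucose uptake, and its RNA is known to respond to glucose-derived signals. It was at 32.9, 48.0, 54.4 and 49.6 TPM in the ONO libraries and 11.9, 13.2, 18.6 and 16.9 TPM in the vilanterol libraries. Every ONO library was above every vilanterol library, and the ratio of means was 3.05 (log2 fold change 1.55 ± 0.15, SE, adjusted p 8.84e-08). ARRDC4, an arrestin-domain relative of TXNIP, was at 8.11, 10.0, 9.74 and 10.2 TPM with ONO and 4.96, 6.04, 5.37 and 5.73 TPM with vilanterol (log2 fold change 0.69 ± 0.09, SE, adjusted p 9.37e-06). In the 250 bases before the start ARRDC4 holds the exact E-box letters CACGTG in 1 place and TXNIP does not hold them. Variants of these letters were not searched, so an E-box of another spelling may be present. Another arrestin-domain gene, ARRDC3, averaged 17.5 ± 3.06 TPM with ONO and 23.4 ± 5.48 TPM with vilanterol and was not called (adjusted p 0.197); with the block it was called lower (6.66e-05).

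EGR1, a zinc-finger factor induced through MAP kinases, was at 6.43, 6.32, 6.96 and 6.42 TPM with ONO and 3.75, 3.84, 3.02 and 3.32 TPM with vilanterol, without overlap (log2 fold change 0.75 ± 0.16, SE, adjusted p 0.00354). FOSL1, an AP-1 subunit, was at 61.1, 47.4, 50.2 and 59.2 TPM with ONO and 47.4, 42.4, 32.9 and 34.7 TPM with vilanterol. Its groups touched, and its call (adjusted p 0.0393) was lost without vilanterol replicate 3 (0.184) and without 3 other libraries in turn. Among 30 tested immediate early transcription factors these 2 were called higher and 3, ATF3, MYC and MAFK, lower; with the block the counts were 4 and 10. MYC averaged 52.0 ± 6.11 TPM with ONO and 72.1 ± 10.6 TPM with vilanterol (SD, n = 4 each, adjusted p 0.00114; 0.076 with only the groups of the contrast fitted), and MAFK, a small Maf protein, 57.1 ± 3.52 TPM with ONO and 82.3 ± 6.47 TPM with vilanterol (adjusted p 0.00189).

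**Figure D3:**
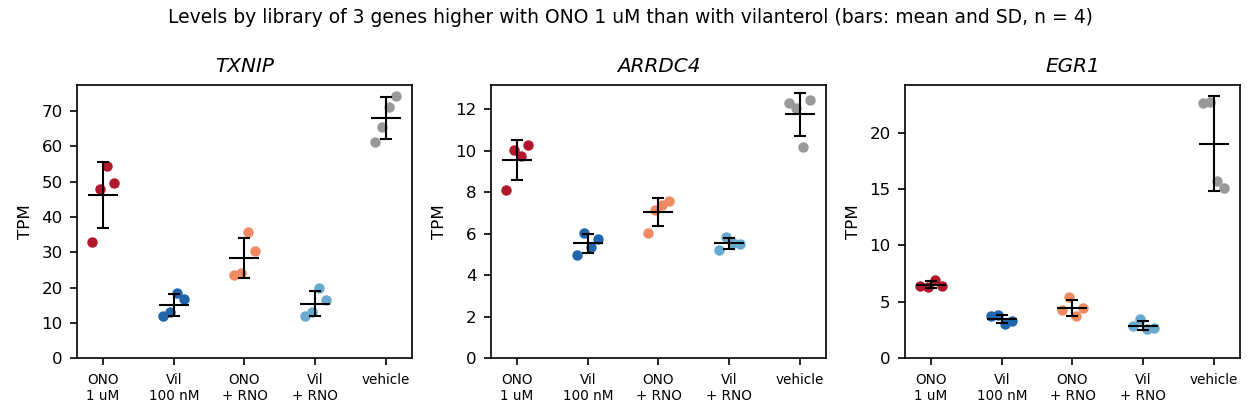
Levels in TPM of TXNIP, ARRDC4 and EGR1, by library, for ONO 1 uM, vilanterol 100 nM, ONO with RNO, vilanterol with RNO and vehicle; points are libraries, and bars are the mean and SD of 4. The 4 ONO libraries of TXNIP lie between 32.9 and 54.4 TPM, above the vilanterol libraries and below the vehicle libraries.

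The list that holds TXNIP and ARRDC4 also contains genes of glucose uptake and use, and 5 of its 25 tested members were called lower with ONO (9 with the block) beside the 2 called higher. SLC2A3, the glucose transporter GLUT3, was at 42.9, 45.5, 50.6 and 55.1 TPM with ONO and 69.8, 89.1, 83.7 and 87.7 TPM with vilanterol (log2 fold change -0.75, adjusted p 0.00507). PPP1R3C and PPP1R3B, which target a phosphatase to glycogen, averaged 13.8 and 6.46 TPM with ONO and 23.0 and 9.41 TPM with vilanterol. PFKFB3, which makes an activator of glycolysis, averaged 18.1 ± 0.826 TPM with ONO and 24.3 ± 1.10 TPM with vilanterol (SD, n = 4 each, adjusted p 0.000204), and HK2, a hexokinase, 15.02 TPM with ONO and 17.3 TPM with vilanterol. The call of HK2 was lost without 5 libraries in turn (adjusted p up to 0.171, without ONO replicate 2). The median of the list was -0.05, with called members on both sides of 0.

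Growth factor genes were lower where they were called. Of 25 tested, 5 were called lower (AREG, HBEGF, FGF9, BDNF and ERRFI1) and none higher, 9 with the block. BDNF averaged 27.8 ± 2.69 TPM with ONO and 40.6 ± 2.43 TPM with vilanterol (SD, n = 4 each, adjusted p 0.00186), and FGF9 9.15 ± 0.94 TPM with ONO and 12.5 ± 0.746 TPM with vilanterol (adjusted p 0.000858). Of 14 tested MAP kinase phosphatase and Sprouty genes, DUSP1 and DUSP8 were called lower (5 lower and 1 higher with the block). Leaving out ONO replicate 3 ended the calls of DUSP8 (0.174) and HBEGF (0.187), and each was also lost without 5 or more other libraries in turn.

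In TGF-beta and BMP signalling 4 of 26 were called lower, 9 with the block. FST encodes follistatin, which binds activin, and was at 12.4, 11.4, 12.5 and 13.3 TPM with ONO and 18.2, 15.02, 19.7 and 20.0 TPM with vilanterol (log2 fold change -0.51 ± 0.09, SE, adjusted p 0.000809). TGIF1, a repressor of SMAD-dependent transcription, averaged 48.0 ± 2.71 TPM with ONO and 70.1 ± 3.56 TPM with vilanterol, ID3, a target of BMP signals, 11.2 ± 1.74 TPM with ONO and 17.5 ± 3.01 TPM with vilanterol, and GREM1, a BMP antagonist, 199 ± 18.4 TPM with ONO and 245 ± 14.1 TPM with vilanterol (SD, n = 4 each). With only the groups of the contrast fitted, ID3 (adjusted p 0.0505) and GREM1 (0.064) were not called. Among 23 YAP and TEAD target genes LATS2, a kinase that restrains YAP, and NUAK2 were called lower (5 with the block). Of 23 genes of Notch, Wnt and Hedgehog signalling, JAG1, a Notch ligand, and FZD8, a Wnt receptor, were called lower, at 1.32 TPM each with ONO and 2.12 and 2.48 TPM with vilanterol; with the block 7 were lower and 1 higher. The call of NUAK2 was lost without ONO replicate 3 (adjusted p 0.0885) and without vilanterol replicate 1.

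In the plasminogen and matrix list 2 of 30 were called lower (7 with the block). PLAUR, the receptor of the urokinase plasminogen activator, was at 28.0, 20.9, 24.8 and 23.9 TPM with ONO and 39.6, 36.9, 37.8 and 37.7 TPM with vilanterol. Every ONO library was below every vilanterol library, and the log2 fold change was -0.62 ± 0.06 (SE, adjusted p 8.84e-08), sharing with TXNIP the lowest adjusted p among the genes named. PLAT, the tissue-type activator, averaged 38.8 ± 4.01 TPM with ONO and 47.1 ± 2.19 TPM with vilanterol (SD, n = 4 each, adjusted p 0.000641; 0.111 with only the groups of the contrast fitted). TM4SF1, a tetraspanin-like membrane protein, averaged 226 ± 17.8 TPM with ONO and 354 ± 14.6 TPM with vilanterol, and CTNNB1, β-catenin, 241 ± 3.10 TPM with ONO and 256 ± 2.86 TPM with vilanterol. They were the 2 called of 26 adhesion genes (5 lower and 1 higher with the block), and the call of CTNNB1 was lost without 6 libraries in turn (adjusted p up to 0.111, without ONO replicate 2).

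Of 24 tested genes of cholesterol and fatty acid synthesis, 4 were called lower (8 with the block), among them SQLE, CYP51A1 and STARD4, with ratios of ONO to vilanterol means of 0.906, 0.869 and 0.877. Of 24 genes of the unfolded protein and ATF4 response, HERPUD1 and the amino acid transporters SLC7A5 and SLC38A2 were called lower (8 with the block), and SLC38A2 averaged 260 ± 13.1 TPM with ONO and 360 ± 17.1 TPM with vilanterol (SD, n = 4 each, adjusted p 1.14e-05). Among 22 apoptosis regulators BCL2L11, PMAIP1 and CASP9 were called lower (5 lower and 1 higher with the block), and among 24 CDK inhibitors and p53-linked genes PMAIP1, BTG1 and PLK2 (5 with the block). PTGES, which makes prostaglandin E2, the natural ligand of EP4, averaged 4.997 ± 0.629 TPM with ONO and 6.89 ± 0.585 TPM with vilanterol (adjusted p 0.0147) and was the 1 called of 7 prostaglandin genes. ATP1B3, a sodium pump subunit, was the 1 called of 11 ion transport and mucin genes (2 with the block). Leaving out 1 library ended the calls of SQLE (adjusted p up to 0.106, without vilanterol replicate 4), HERPUD1 (up to 0.103, without ONO replicate 3), PTGES (up to 0.104, without ONO replicate 2), BCL2L11 (up to 0.0657, without vilanterol replicate 1), PMAIP1 (up to 0.0962, without ONO replicate 2), BTG1 (up to 0.0998, without ONO replicate 2) and CASP9 (up to 0.082, without vilanterol replicate 4).

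The cell cycle list was the 1 list in which more members were called higher than lower. Of 37 tested, HJURP, a centromere chaperone, and PSRC1, a spindle protein, were called higher and CDC6, a replication licensing factor, lower, and the median log2 fold change was 0.07. HJURP was at 26.8, 26.5, 25.5 and 26.7 TPM with ONO and 23.9, 21.6, 21.4 and 21.1 TPM with vilanterol (log2 fold change 0.25 ± 0.05, SE, adjusted p 0.0051). CDC6 was not called with only the groups of the contrast fitted (adjusted p 0.121). With the block 11 of the 37 were called higher and 2 lower. No gene was called by limma among 19 clock genes, 22 interferon-stimulated genes and 32 ribosomal protein genes, with medians of 0.0046, -0.08 and 0.02. At an unadjusted p under 0.05 they held 4, 1 and 0 genes, and with the block the clock list held 4 lower and 1 higher, the interferon list 1 lower and the ribosomal list none. Across the 26 lists the median was negative in 22, and over all genes tested it was 0.00097. The lists share members and were chosen with earlier results of these data known, so this count is a description.

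**Figure D4:**
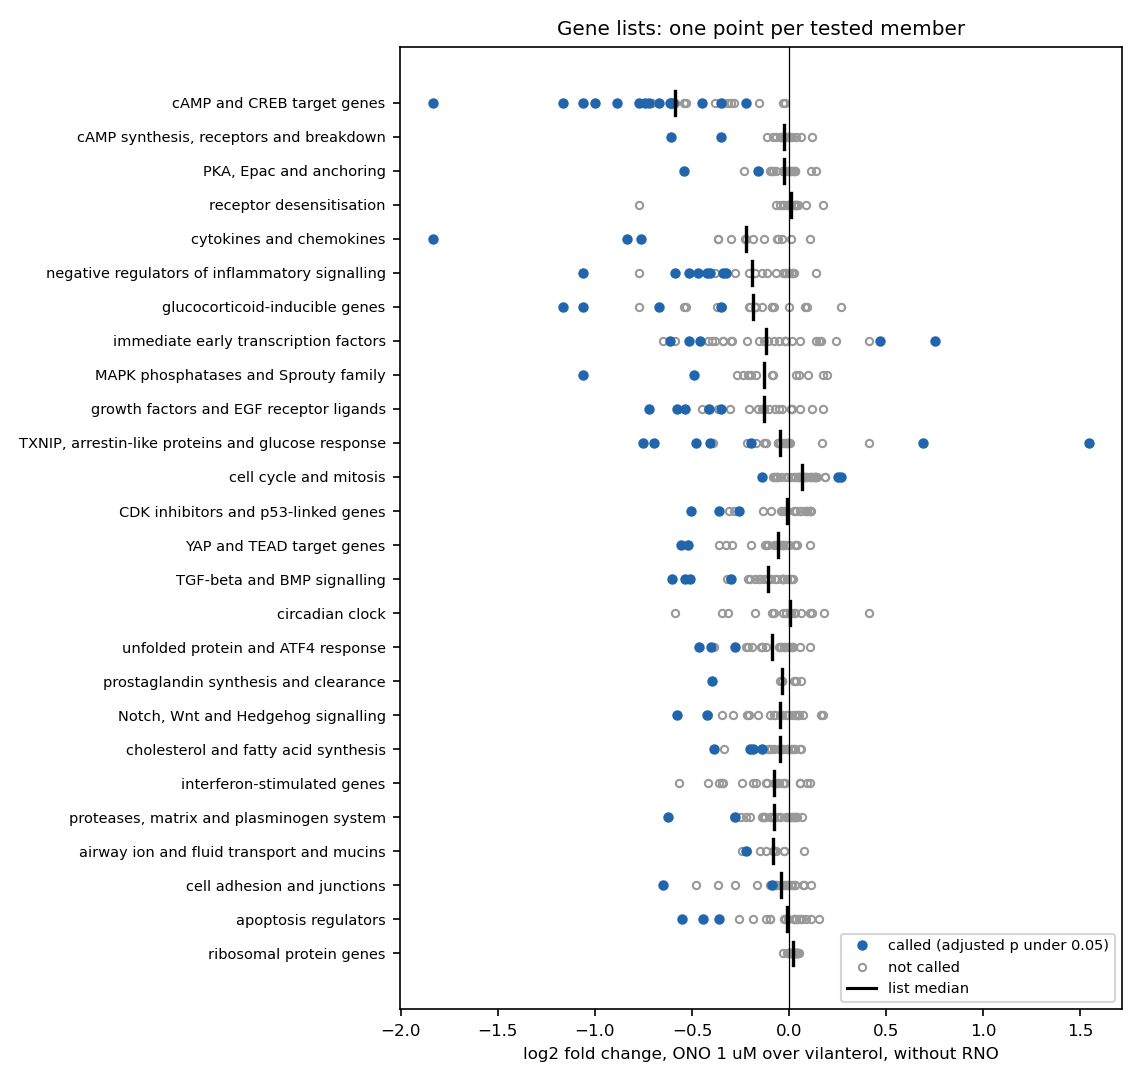
Log2 fold change of ONO 1 uM over vilanterol for each tested member of the 26 gene lists, 1 row a list; filled points are called genes, open points are not called, and black bars are list medians. The cAMP and CREB row lies wholly left of 0, with a median of -0.59, and the TXNIP row has called genes on both sides.

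Several of the largest differences fell outside the lists. RHOB, a small GTPase, was at 125, 100, 79.3 and 97.7 TPM with ONO and 235, 195, 159 and 185 TPM with vilanterol (log2 fold change -0.94 ± 0.15, SE, adjusted p 0.000115). NPTX1, a secreted pentraxin known from neurons, was at 1.65, 1.23, 1.72 and 1.35 TPM with ONO and 3.02, 3.12, 4.30 and 3.99 TPM with vilanterol (log2 fold change -0.88, adjusted p 1.20e-05). Neither gene's groups overlapped. RAB3A, a GTPase of vesicle release, averaged 1.70 ± 0.325 TPM with ONO and 3.61 ± 0.401 TPM with vilanterol (SD, n = 4 each). GAS1, a membrane protein linked to growth arrest, averaged 33.0 ± 4.86 TPM with ONO and 59.7 ± 7.92 TPM with vilanterol (adjusted p 0.0102; 0.0518 without vilanterol replicate 4). TBX3, a T-box repressor, averaged 6.38 ± 1.22 TPM with ONO and 11.2 ± 1.38 TPM with vilanterol, and TOB1, an antiproliferative protein, 68.6 ± 11.8 TPM with ONO and 114 ± 19.5 TPM with vilanterol.

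Beyond TXNIP, EGR1 and ARRDC4, the higher genes differed by less than 1.5 times. The largest of them without overlap were KCTD11 (7.79 ± 0.666 TPM with ONO and 5.75 ± 0.625 TPM with vilanterol), MED7, a Mediator subunit (13.3 ± 0.985 TPM with ONO and 10.2 ± 1.35 TPM with vilanterol), C14orf79, MIEF2, a mitochondrial fission factor, UBA6-AS1, WDR5B, RPP25L, ZNF429, ETAA1, an activator of the ATR kinase, JRK, BORA, an activator of Aurora A, and RWDD2A. UBA6-AS1 is antisense to another gene, and the sources used here do not say whether strand was used in quantification, so its reads cannot be told from those of its partner. ETAA1 was at 16.3, 16.1, 15.6 and 15.8 TPM with ONO and 13.2, 12.8, 12.4 and 12.2 TPM with vilanterol (log2 fold change 0.31 ± 0.07, SE, adjusted p 0.006). JRK averaged 5.90 ± 0.41 TPM with ONO and 4.54 ± 0.255 TPM with vilanterol (adjusted p 0.000467), and BORA 5.67 ± 0.15 TPM with ONO and 4.41 ± 0.18 TPM with vilanterol (adjusted p 0.00262). ETAA1, JRK and BORA kept their calls without each of the 8 libraries in turn. The other 9 lost it without at least 1, with the highest adjusted p for RPP25L (0.189, without ONO replicate 4), MED7 (0.145, without ONO replicate 4) and ZNF429 (0.118, without ONO replicate 4).

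The vehicle level placed most of these genes in a common order. For 205 of the 216 lower genes the mean in vehicle was below both agonist means, so that ONO lay between vehicle and vilanterol, and for 45 of the 53 higher genes it was above both. Over all genes tested the vehicle mean was below both in 4819 and above both in 5553. Without vehicle replicate 3, which deviated most from its group (an SD of deviations of 0.209, against 0.102 to 0.143 in the libraries compared here), the counts were 203 and 44. These are orders of means, with no test against vehicle.

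ONO was also given at 0.1 nM and 1 nM, and the means over its concentrations are described for some of the leading genes, with no test. IL6 averaged 4.48 TPM in vehicle, 4.62 TPM at 0.1 nM, 6.37 TPM at 1 nM and 16.5 TPM at 1 uM ONO, and 60.5 TPM with vilanterol. NR4A3 averaged 1.35, 1.66, 5.32 and 36.2 TPM along the same series and 73.3 TPM with vilanterol. TXNIP ran the other way, at 68.0 TPM in vehicle, 66.8, 62.8 and 46.2 TPM at the 3 ONO concentrations and 15.1 TPM with vilanterol. DUSP1 averaged 63.6 TPM in vehicle, 60.3, 79.7 and 104 TPM at the 3 ONO concentrations and 218 TPM with vilanterol, so that the mean at 0.1 nM was not above that of vehicle. The means of ARRDC4 did not go in one direction, at 11.7 TPM in vehicle, 11.6, 12 and 9.53 TPM at the 3 ONO concentrations and 5.53 TPM with vilanterol. The mean at 1 nM ONO was below that at 1 uM for 209 of the 216 lower genes, against 5986 of all 12591 tested, and above it for 50 of the 53 higher genes, against 6605 of all tested. A full order over 0.1 nM, 1 nM and 1 uM was less frequent: the means went up at each step for 176 of the 216 lower genes and down at each step for 37 of the 53 higher genes, against 2774 up and 2953 down of all tested. The 1 uM libraries are also those that chose the genes, so these counts are descriptions.

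A few genes left the order of vehicle, ONO and vilanterol. HBEGF, an EGF receptor ligand, was the 1 lower gene whose vehicle mean, 41.1 TPM, lay above both, with 26.3 ± 4.11 TPM with ONO and 39.9 ± 6.31 TPM with vilanterol (SD, n = 4 each). In 10 lower genes the vehicle mean lay between the agonist means: CITED2, EAF1, ERRFI1, FGFR1OP2, NOCT, PSG1, SDE2, SLC20A1, ZC3H12A and ZFP36L1. CITED2, which binds the coactivators CBP and p300, averaged 239 ± 26.1 TPM with ONO, 326 ± 40.5 TPM with vilanterol and 246 ± 9.15 TPM in vehicle. ZFP36L1, an RNA-binding protein that promotes decay of AU-rich transcripts, averaged 34.0 ± 2.03 TPM with ONO, 43.2 ± 2.70 TPM with vilanterol and 42.1 ± 4.48 TPM in vehicle. HBEGF and these 10 were picked out after their levels were seen.

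With RNO added to both agonists, no gene was called between ONO and vilanterol by limma, and 306 had an unadjusted p under 0.05, against 1310 without RNO. The lowest adjusted p was that of TXNIP, 0.0554. The replicate block called 4 genes (TXNIP higher with ONO, FST, CDK17 and ADNP-AS1, an antisense RNA with the same uncertainty as UBA6-AS1, lower). TXNIP was at 23.5, 24.1, 35.7 and 30.3 TPM with ONO and RNO and 12.0, 13.2, 19.8 and 16.6 TPM with vilanterol and RNO, again without overlap (log2 fold change 0.84, 95% interval 0.53 to 1.16). FST was at 15.3, 13.0, 16.4 and 16.0 TPM with ONO and RNO and 19.6, 18.1, 23.7 and 20.5 TPM with vilanterol and RNO (log2 fold change -0.41, 95% interval -0.60 to -0.22).

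These libraries are separate from those of the comparison without RNO. Of the 216 lower genes 187 had a lower mean log2 value with ONO and RNO than with vilanterol and RNO, and of the 53 higher genes 40 had a higher one; over all genes tested 59.5% lay on the same side in both comparisons. The groups with RNO did not overlap, in the same direction, for 21 of the 216 (9.72%), against 0.897% of all genes tested, and for 5 of the 53 (9.43%), against 0.85%. The 5 were TXNIP, ARRDC4, EGR1, NUDT12 and PNISR. NUDT12 and PNISR, like CDK17 and ADNP-AS1 above, are named because of these values. With its sign kept, the difference was smaller with RNO for all 216 and all 53, with median ratios of 0.947 and 1.04. The 29 lower and 13 higher genes that changed sides with RNO count as smaller here, whatever the size of their difference. The 269 genes were chosen for their difference without RNO, so part of this is set by that choice. Pearson's r between the log2 fold changes was 0.29 over the 12591 genes and 0.735 over the 269, given as a description.

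The leading lower genes lay nearer to the vilanterol level when RNO was present. NR4A3 was at 71.8, 72.6, 58.5 and 71.5 TPM with ONO and RNO and 71.9, 72.5, 61.0 and 70.2 TPM with vilanterol and RNO (95% interval of the log2 fold change -0.37 to 0.35). IL6 was at 55.1, 43.2, 26.3 and 39.4 TPM with ONO and RNO and 77.7, 52.2, 38.9 and 50.1 TPM with vilanterol and RNO (95% interval -0.84 to 0.02). SGK1 was at 248, 200, 145 and 167 TPM with ONO and RNO and 297, 223, 169 and 182 TPM with vilanterol and RNO (95% interval -0.58 to 0.20). For DUSP1 the means were 178 TPM with ONO and RNO and 210 TPM with vilanterol and RNO (95% interval -0.53 to 0.04). PDE4D stayed apart by a small margin, at 13.98, 14.3, 13.6 and 13.5 TPM with ONO and RNO and 14.7, 14.9, 15.04 and 15.1 TPM with vilanterol and RNO (95% interval -0.30 to 0.10).

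**Figure D5:**
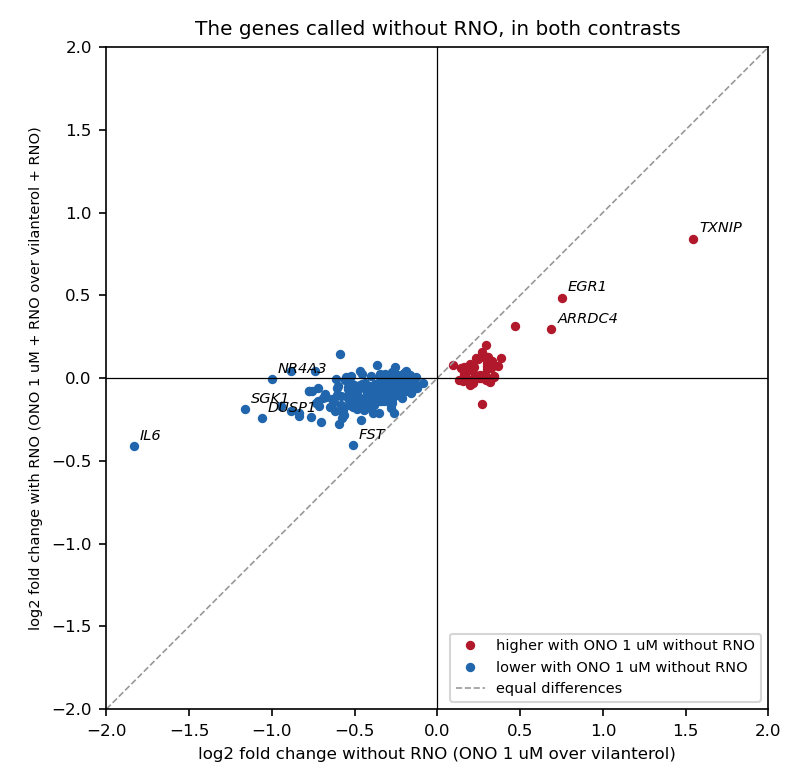
Log2 fold change of ONO with RNO over vilanterol with RNO (vertical) against that of ONO over vilanterol without RNO (horizontal), for the 269 genes called without RNO; red points are the 53 higher and blue points the 216 lower, and the dashed line marks equal differences. All of the lower genes lie above the dashed line and all of the higher genes below it, and TXNIP is the highest in both, at 1.55 without RNO and 0.84 with it.

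The difference between the 2 comparisons was tested as an interaction, which called 3 genes of 12591 (0.0238%), each with an adjusted p of 0.0369, and 512 genes at an unadjusted p under 0.05. In all 3 the gap between ONO and vilanterol was smaller with RNO. PLAUR was at 33.0, 34.3, 31.6 and 33.8 TPM with ONO and RNO and 38.0, 36.2, 36.8 and 35.8 TPM with vilanterol and RNO, a log2 fold change of -0.14 with RNO against -0.62 without it. LINC01128, a long non-coding RNA, was at 8.24, 7.35, 7.96 and 7.10 TPM with ONO and 11.8, 9.73, 10.4 and 10.99 TPM with vilanterol, and averaged 10.2 TPM with ONO and RNO and 10.4 TPM with vilanterol and RNO. PTP4A1, a protein tyrosine phosphatase, was at 68.5, 62.6, 69.0 and 68.5 TPM with ONO and 82.7, 86.2, 84.4 and 82.1 TPM with vilanterol, and averaged 83.2 TPM with ONO and RNO and 81.9 TPM with vilanterol and RNO. With the replicate block 153 genes were called, 96 of them among the 216 lower genes and 16 among the 53 higher genes. For IL6 the interaction was -1.42 on the log2 scale (adjusted p 0.0987; 0.00339 with the block). The count of 3 depended on single libraries: leaving out 1 of the 16 in turn gave 14 without ONO replicate 1, 10 without replicate 1 of vilanterol with RNO, and 0 for 11 of the others.

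The 16 libraries of these 2 comparisons had column totals of 961315 to 1013360 TPM. The medians of all 40 libraries of the series ran from 8.47 to 9.11 TPM. No read counts were used here, so the depth is unknown. Of 16 listed markers of airway basal and squamous epithelium 9 were in the table and 5 were tested. Listed markers that were not tested were absent from the values or averaged under 1 TPM. No values are given here for KRT5, KRT14 and TP63, which were on the list and define basal cells. KRT17 made up most of the sum (1420 to 1800 TPM with ONO and 1830 to 2250 TPM with vilanterol). KRT17, a keratin, was itself called lower, at 920 ± 108 TPM with ONO and 1323 ± 146 TPM with vilanterol (SD, n = 4 each, adjusted p 0.000843), and KRT8 and KRT18, keratins of simple epithelium, were at 341 and 267 TPM with ONO and 336 and 272 TPM with vilanterol without being called. Mesenchymal markers summed to 2490 to 2700 TPM with ONO and 2590 to 2860 TPM with vilanterol, with none of 11 called by limma and none at an unadjusted p under 0.05; the mean of 10 of the 11 was lower with ONO, and the block called 1 lower, COL1A1. Of the 5 basal and squamous markers the block called KRT17 and KRT7 lower. Leukocyte markers summed to 12.5 to 13.3 TPM with ONO and 12.3 to 13.7 TPM with vilanterol. Markers of ciliated and secretory cells (0.259 to 0.398 TPM with ONO and 0.283 to 0.36 TPM with vilanterol) and of endothelium (0.737 to 0.87 TPM with ONO and 0.846 to 1.14 TPM with vilanterol) were near 0.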

How the data were processed

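RNA from BEAS-2B cells was measured by poly(A) RNA-seq in 40 libraries of 10 groups, and per the submitters' processing notes bcl2fastq 2.18.0.12, kallisto and sleuth were used, with the builds GRCh37 and hg19; the sources used here give neither the versions of kallisto and sleuth nor the strand setting. Per the labels' design text 2 sequencing kits were used, and which library went with which kit is not given. The authors deposited values for 15788 genes, which are a normalised signal, called TPM here; TPM had been assumed, and the unequal column totals led to it being treated as a signal. No counts were used here, so the depth is unknown and no counting interval is given.

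On log2 values after adding 1, 12591 genes that averaged 1 TPM or more were tested with limma (version 3.58.1, R 4.3.3; tables read with data.table, version 1.17.8). The model had a mean for each group over all 40 libraries, moderated variances with an intensity trend, 30 residual degrees of freedom. Calls needed an adjusted p (Benjamini-Hochberg, over all genes) under 0.05. Adjusted p-values are two-sided and are limma's; because 1 was added, log2 fold changes understate differences of genes at low levels; ratios are of mean TPM. The model was checked on simulated data.

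Replicate numbers come from the labels. Deviations from the group mean of same-numbered libraries correlated at 0.108 to 0.515 between ONO and vilanterol and at 0.117 to 0.404 with RNO, so the numbers pair the libraries. The main calls come from the fit without a replicate block, which leaves this pairing out. A fit with the replicate number as a block was an alternative, and it called more genes in both comparisons and in the interaction. Named genes are the 15 highest and 15 lowest by log2 fold change of the called genes without overlap, members of the 26 gene lists or 5 marker lists, PTGER4, PDE4, NR4A, TXNIP and ARRDC4 genes, and the genes of the interaction; for a gene named outside this the text says so, and some genes under the rule are not reported here. The members and lists were chosen with earlier results of these data known. Groups were also compared at other pseudocounts (0.5 and 0.1), filters (none, and a mean of 5), scalings, library weights and variance settings. Each library of 1 uM ONO and of vilanterol, with and without RNO, was also left out in turn. Vehicle replicate 3 was left out as well, and the remaining libraries of the series were not.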

Additional observations from a re-analysis of the deposited data

Results flagged for a closer look

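In 12 of 238 groups of 4 libraries of the genes named, 1 library stood apart by Dixon's gap; chance gives about 1 in 20, which is close to this share. The lowest libraries that stood apart were vilanterol replicate 3 for NR4A3 (64.2 TPM, with the others from 75.7 to 76.6), replicate 3 of ONO with RNO for NR4A3 (58.5 TPM, others 71.5 to 72.6), ONO replicate 2 for PTP4A1 (62.6 TPM, others 68.5 to 69.0), ONO replicate 3 for TSC22D2 (9.95 TPM, others 10.8), vilanterol replicate 3 for DUSP8 (14.3 TPM, others 18.8 to 19.7) and vilanterol replicate 2 for CDC6 (63.6 TPM, others 67.6 to 68.1). The highest were ONO replicate 3 for EGR1 (6.96 TPM, others 6.32 to 6.43), ONO replicate 4 for MED7 (14.8 TPM, others 12.7 to 13.0), vilanterol replicate 1 for CXCL2 (3.83 TPM, others 2.06 to 2.22), vilanterol replicate 1 for SLC7A5 (565 TPM, others 493 to 499), and replicate 1 for ARRDC3 with ONO (22.0 TPM, others 15.6 to 16.5) and with vilanterol (31.6 TPM, others 20.2 to 21.1).

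The gap between ONO and vilanterol differed between the libraries without and with RNO for 3 genes by the interaction test, with differences of log2 fold change of -0.48 for PLAUR, -0.41 for LINC01128 and -0.34 for PTP4A1 (adjusted p 0.0369 each). In each of them, without RNO, all 4 ONO libraries were below all 4 vilanterol libraries.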

How the results depend on the processing

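The count of 269 called genes stayed within 1.5 times of itself, at 183 to 274, under other pseudocounts, filters, scalings, robust variances and a fit of the contrast's groups only. With the replicate block it was 856 (236 higher, 620 lower), with library weights 454 (109 higher, 345 lower), and the count of higher genes was 21 with only the contrast's groups fitted. Leaving out 1 library gave 157 to 352 calls (27 to 75 higher, 130 to 277 lower), with the upper end without vehicle replicate 3, which enters through the shared variance. With RNO, the count of 0 became 4 with the block and 1 with a pseudocount of 0.1, a filter at a mean of 5, equal totals or library weights, and 0 to 1 without 1 library; genes called the same way in both comparisons numbered 3 with the block, 1 under those same 4 settings and 0 to 1 without 1 library. The 3 interaction calls became 153 with the block, 9 with only the contrast's groups, 10 with library weights, 0 with a pseudocount of 0.1, no filter or equal totals, and 0 to 14 without 1 library. The causes were not tested. Of 92 named genes called, 50 kept the call under every setting that tested them, 42 lost it under at least 1 and none changed direction. There were 19 settings, and genes that averaged under 5 TPM were not tested under the filter at a mean of 5. Over the 250 bases before the start alone, the full element was in 6.55% and the short element in 41.1% of promoters of the lower genes. The unknown depth limits what can be said of genes near 1 TPM.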
